A study of Mus musculus with 10 samples.

Results

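A set of 10 genes was read in every normoglycemic KPC orthotopic tumor, and hardly or not at all in tumors of mice given dextrose water. They are Rcan2, Il2ra, Alb, Cntnap4, Cyp2j5, Lmx1a, H2-M10.6, H2al2a, Gm11217 and Gm7437, that is, 10 of the 55359 genes in the table. They were picked by their own normalized counts for exactly this contrast, so their difference between the groups is given below as a description, with no test. KPC K8484, a mouse pancreatic cancer cell line, was injected into the pancreas of C57BL/6 mice at an age of 10 weeks, and tumors were seen by imaging on day 7. Tumors of 5 mice per group entered RNA sequencing. CTRL mice drank regular water and were normoglycemic, and D30 mice drank water with 30% dextrose for 14 days, which the labels call hyperglycemic. No other treatment separates the 10 tumors in the labels, both groups carry the same cell line in the same strain, and all tumors stem from that 1 line. The sample titles use the term PDX, whereas the labelled source is KPC K8484 cells. Tumors are called by their column in the table (N1, N2, N4, N5 and N6 for CTRL, T1, T2, T4, T5 and T7 for D30), because the labels number the replicates differently.

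The 10 genes come from different pathways. Rcan2 and Il2ra belong to signalling: the calcineurin phosphatase activates NFAT transcription factors and is held back by regulators of the RCAN family, while the alpha chain of the interleukin-2 receptor turns a moderate-affinity receptor into the high-affinity form carried by activated and regulatory T cells. Alb and Cyp2j5 are known from liver and kidney, Cntnap4 and Lmx1a from neurons and their precursors, H2-M10.6 from the class I cluster of the major histocompatibility complex, and H2al2a from the chromatin of maturing sperm. Gm11217 and Gm7437 are annotated as long intergenic noncoding RNAs of unknown role.

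The values are normalized counts, which are a tumor's reads per gene divided by 1 size factor for that tumor, and the reads behind them could be recovered as whole numbers. The recovered reads came to 29915331 to 42122304 reads per CTRL tumor and 29192261 to 37126175 per D30 tumor. Epithelial keratin Krt19 was high in all tumors, at 45447 to 86791 in CTRL and 83452 to 114649 in D30, whereas the epithelial adhesion gene Epcam was low, at 15.9 to 191 and 0 to 62.5. The number of genes with a read was lowest in T5 (20482), and T4 was the only tumor with reads from Y-linked genes (841). Among the 24560 genes tested, limma with Benjamini-Hochberg adjustment called 344 higher (1.40%) and 334 lower (1.36%) in D30 tumors. Without T4 it called 1573 genes, 18 of them in the lists and 16 among the neighbours described below, in place of 678, 8 and 7.

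The 10 genes gave 5963 reads in the CTRL tumors together and 190 in the D30 tumors. No CTRL tumor lacked a read for any of them. In the D30 tumors, 31 of the 50 values were 0, 11 rested on 1 to 3 reads and 8 on more, namely those of Rcan2 in all D30 tumors and of Il2ra in T1, T2 and T7. The groups did not overlap for 10 of 10 genes, against 815 of all 24560 genes tested that were lower in D30 with no overlap (3.32%), a property that the choice of genes used. They did not overlap without T4 either, since leaving out a tumor cannot create an overlap. The reads of the 10 genes numbered 892 to 1826 in each CTRL tumor and 27, 70, 11, 17 and 65 in T1, T2, T4, T5 and T7. Hence T4 and T5, where 8 of the 10 genes had no read, held the least, and most of the remaining D30 reads were those of Rcan2 (131) and Il2ra (34).

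**Figure D1:**
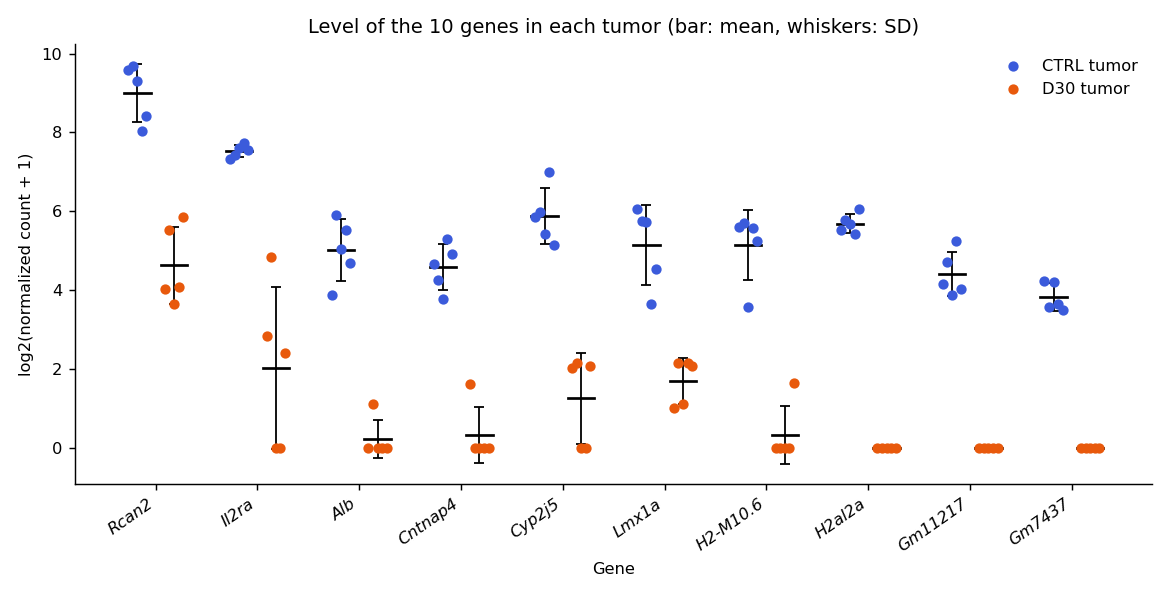
Level of each of the 10 genes in each tumor, as log2(normalized count + 1) on the vertical axis. Points are tumors (5 CTRL, 5 D30), horizontal bars are means and whiskers are SD. No D30 tumor reaches the lowest CTRL tumor of the same gene, and Rcan2 is the only gene with more than 3 reads in every D30 tumor.

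Rcan2, the member of the calcineurin regulator family on chromosome 17 (GRCm38 positions 43801351 to 44039516, plus strand), was the highest of the 10 genes. Its normalized counts were 765 in N1, 816 in N2, 630.4 in N4, 262 in N5 and 339.7 in N6. In D30 tumors they were 15.4 in T1, 44.7 in T2, 11.6 in T4, 16.03 in T5 and 56.5 in T7. The lowest CTRL tumor was thus several times above the highest D30 tumor, and within D30 the tumors T2 and T7 stood above the others. Means were 563 ± 250 and 28.8 ± 20.3 (SD, n = 5 per group), a ratio of 19.5 with a 95% interval of 16.4 to 23.3 that covers counting error only. Its relatives had means of like size in both groups: that of Rcan1 was 1179 in CTRL and 1139 in D30 (adjusted p = 0.876, limma), and that of Rcan3 was 1124 and 1371 (adjusted p = 0.413, limma). Of 17 tested genes of the calcineurin and NFAT list, which holds the phosphatase subunits, calmodulins and NFAT factors, 0 were called by limma in either direction and 2 had an unadjusted p under 0.05. These were Ppp3ca, the catalytic alpha subunit, with a log2 difference of 0.47 ± 0.17 (SE) and an adjusted p of 0.174 (limma), and Nfatc1 with -0.66 ± 0.29 and 0.263. The share of all genes tested with an unadjusted p under 0.05 was not counted. Such counts, here and for the lists below, therefore do not show an excess. The list's median log2 difference was 0.15, and that of all genes tested was -0.06. The median turned to -0.08 when values were scaled by library size, which moved the median of all genes to -0.27.

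Il2ra, on chromosome 2 (11642807 to 11693193, plus strand), was the most even of the 10 genes among CTRL tumors. Its normalized counts there were 159 in N1, 171 in N2, 192 in N4, 212 in N5 and 186 in N6, with a highest value only 1.34 times the lowest. D30 tumors had 6.17 in T1, 27.5 in T2, 0 in T4, 0 in T5 and 4.26 in T7, and 24 of their 34 reads were from T2. Without T2 the D30 mean was 2.61, against 7.58 ± 11.4 with it. The other chains of the receptor overlapped between the groups. Il2rb, the beta chain shared with the interleukin-15 receptor, had 58.9 to 99.6 in CTRL and 6.94 to 72.1 in D30 (log2 difference -1.15 ± 0.53 SE, adjusted p = 0.284, limma). Il2rg, the common gamma chain, had 186.8 to 351 and 92.5 to 380.4 (-0.15 ± 0.37, adjusted p = 0.881, limma). Transcripts of the ligand Il2 amounted to 3 reads in all tumors together. Gm37881, which is annotated inside Il2ra on the same strand, had a mean of 1.37 in CTRL and 0 in D30.

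Of 17 tested genes of IL-2 receptor signalling, a list of the receptor chains, related receptors, JAK and STAT factors and their targets, limma called 1 higher and 0 lower in D30, against 2.76% of all genes. The one was Il7r, the alpha chain of the interleukin-7 receptor, with 30.1 to 42.1 in CTRL and 88.4 in T1, 67.6 in T2, 387 in T4, 228 in T5 and 92.7 in T7. All D30 tumors lay above all CTRL tumors, by a log2 difference of 1.92 ± 0.45 (SE, adjusted p = 0.0406, limma), a call lost in 8 of 18 alternatives (without a filter, or without N1, N2, N4, N5, N6, T5 or T7), where the adjusted p ranged up to 0.117. Il21r, the interleukin-21 receptor, had 112 to 235 in CTRL and 49.2 to 105 in D30, with no overlap, and did not pass (adjusted p = 0.124, limma) except with DESeq2 (adjusted p = 0.0212). The list's median log2 difference was -0.12, with a range of -0.34 to 0.09 over the alternatives, where the positive value was that without T4.

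Of 20 T cell and regulatory T cell markers, 0 were called by limma in either direction, 7 had an unadjusted p under 0.05, 17 had a negative log2 difference and the list's median was -0.74. Foxp3, the lineage factor of regulatory T cells, had 5.26 to 18.8 in CTRL and 6.17, 4.58, 1.16, 0 and 4.26 in T1, T2, T4, T5 and T7 (adjusted p = 0.124, limma). Cd3e, a chain of the T cell receptor complex, had 17.7 to 40.0 in CTRL and 10.41 to 38.95 in D30 (adjusted p = 0.384, limma). Cd4, the helper T cell coreceptor, had 41.1 to 72.6 and 12.6 to 33.0 with no overlap (-1.23 ± 0.37, adjusted p = 0.0978, limma), and Ikzf2 had 30.98 to 56.8 and 8.01 to 22.6 (-1.29 ± 0.39, adjusted p = 0.102, limma). Both passed with DESeq2 (adjusted p = 0.00981 and 0.0131). T cell markers were read in D30 tumors, and none of the 20 was at 0 in all tumors of both groups. In T5, which had no Il2ra read, Cd3g, Cd8b1, Foxp3 and Gzmb were at 0, while Cd3e was at 11.4 and Cd4 at 12.6. In T4, which had none either, Ccr8 was at 0. The summed level of the list was 1149 to 1635 in CTRL and 1214 to 4341 in D30. Tnfrsf9, a costimulatory receptor, had 273 to 577 in CTRL and 511, 455, 2127, 3451 and 826 in T1, T2, T4, T5 and T7. It made up most of the sum in T4 (2767) and T5 (4341). The sums therefore do not show the direction of most of the other markers, which was negative, and a sum without Tnfrsf9 was not made. In bulk tumors, fewer cells of a type and less RNA per cell cannot be told apart, and the part of T cell content in the level of Il2ra was not tested.

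Alb, which encodes serum albumin and lies on chromosome 5 (90460897 to 90476602, plus strand), had 13.7 normalized counts in N1, 59.3 in N2, 31.98 in N4, 45.1 in N5 and 24.8 in N6. In D30 tumors it had 1 read in all, in T2 (1.15), and 0 in T1, T4, T5 and T7. Every CTRL tumor held at least 13 reads of it and no D30 tumor more than 1, a ratio of 153 with a counting interval of 27.4 to 6031. Alb was low for a liver gene in both groups, at 0.481 reads per kb of exon per 1000000 reads in CTRL, a percentile of 50.7 among the genes with a read there.

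Of 28 hepatocyte markers, 21 were tested, and limma called 0 higher and 1 lower in D30, with 8 at an unadjusted p under 0.05. The log2 difference was negative for 15 of the 21, with a median of -0.84 that depended on the processing (-0.28 with edgeR, -0.34 with a pseudocount of 5, -0.42 without a filter or with a filter at 10). The called gene was Ttr, transthyretin, with 2603 in N1, 1963 in N2, 1034 in N4, 3474 in N5 and 2101 in N6 against 595 in T1, 786 in T2, 458 in T4, 759 in T5 and 1181 in T7. The highest D30 tumor, T7, overlapped the lowest CTRL tumor, N4. The log2 difference was -1.53 ± 0.32 (SE, adjusted p = 0.0237, limma), and the call was lost without N1, N2, N5, N6 or T1 (adjusted p up to 0.0689 over the alternatives). Ambp, a plasma protein precursor, went the other way without passing, with 351 to 1191 in CTRL and 860.5 to 3397 in D30 (1.48 ± 0.38, adjusted p = 0.0554, limma). It passed in 4 of 18 alternatives, with edgeR, with DESeq2 and with limma without N1 or T4, where the adjusted p went down to 0.00288. Cyp3a11 and Mup3, which define mature hepatocytes, were at 0 in every tumor, and 7 of the 28 had at most 3 reads in any tumor. Of the tested markers, Serpina1b, F2 and Serpina1a had no read in any D30 tumor, while 6 of the 21 had a positive log2 difference. In CTRL, Serpina1b had 0 to 23.9 (adjusted p = 0.0635, limma) and Serpina1a 0 to 4.28 (adjusted p = 0.186, limma). F2 was read in every CTRL tumor, at 0.885 to 3.42 (adjusted p = 0.0591, limma). Cyp2e1 was read at 409 in N4, where Alb was at its CTRL median, and at 0 in the other CTRL tumors. The summed level of the list was 36689 to 45094 in CTRL and 33800 to 42452 in D30. Most of that sum came from Apob, an apolipoprotein (means 16153 and 21532), and Hnf4a, a transcription factor (11860 and 7855). The part of hepatocyte content in the level of Alb was not tested.

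Cyp2j5, an arachidonic acid epoxygenase of liver and kidney on chromosome 4 (96628773 to 96664154, minus strand), had 56.8 in N1, 62.2 in N2, 42.0 in N4, 127 in N5 and 34.2 in N6. D30 tumors had 3.08 in T1, 3.44 in T2, 0 in T4, 0 in T5 and 3.20 in T7, that is, 3 reads each in T1, T2 and T7. The lowest CTRL tumor, N6, held 40 reads, and the ratio of means was 33.1 (counting interval 17.4 to 72.4). Its closest relative by transcript sequence, Cyp2j6 (79.2% identity over 64.4% of the transcript), had 54.2 to 126 in CTRL and 104 to 287.5 in D30, with overlapping groups and a positive difference that did not pass (1.28 ± 0.37, adjusted p = 0.0944, limma) but did with DESeq2 and without T4 (adjusted p down to 0.00844). Cyp2j9, the tested gene next to Cyp2j5 on its downstream side at 37.2 kb, had 22.1, 18.1, 6.40, 15.1 and 13.7 in N1, N2, N4, N5 and N6 against 0, 5.73, 6.94, 0 and 0 in T1, T2, T4, T5 and T7 (adjusted p = 0.0571, limma). Cyp2j9 was called lower in 5 of 16 alternatives, namely with DESeq2, a pseudocount of 5 or library-size scaling, or without T2 or T4 (adjusted p down to 0.0132). The other tested genes of the list of epoxygenases and epoxide hydrolases were not called either, so that limma called 0 of 7, while 5 of the 7 had an unadjusted p under 0.05. That count has no share over all genes beside it. The list's median log2 difference was -0.49 (-0.72 to -0.14 over the alternatives), and 5 of its genes had no read in any tumor.

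Cntnap4, a neurexin-like adhesion protein of interneurons, lies on chromosome 8 (112570043 to 112882717, plus strand) and was the lowest of the 10 genes per length, at 0.125 reads per kb per 1000000 reads in CTRL. It had 24.2 in N1, 18.1 in N2, 12.8 in N4, 38.1 in N5 and 29.1 in N6. In D30 tumors 2 reads in T1 (2.06) were all that was found, and T2, T4, T5 and T7 were at 0, for a ratio of 59.4 with a counting interval of 16.5 to 491. Of 13 tested genes of the contactin and neurexin family, limma called 0 in either direction, 1 had an unadjusted p under 0.05 and the median log2 difference was 0.42 (0.21 to 1.099 over the alternatives), with 10 of the 13 above 0. Cntn4, a contactin, had 5.48 to 16.8 in CTRL and 11.5 to 64.8 in D30 (1.24 ± 0.50, adjusted p = 0.225, limma). Gm45904, an antisense gene that overlaps the end of Cntnap4, had a mean of 0.731 in CTRL and 0 in D30, and it is not known here whether reads were counted by strand.

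Lmx1a, a LIM homeodomain factor of dopaminergic neuron precursors, lies on chromosome 1 (167689237 to 167848741, plus strand). Its CTRL tumors split into higher values of 65.2 in N1, 52.8 in N2 and 52.1 in N4, and lower ones of 11.5 in N5 and 22.2 in N6. D30 tumors had 1.03 in T1, 3.44 in T2, 1.16 in T4, 3.43 in T5 and 3.20 in T7, so that Lmx1a and Rcan2 were the 2 genes with a read in every D30 tumor. The gap to CTRL was the narrowest of the 10, with 13 reads in N5 against at most 3 in a D30 tumor, and a ratio of 16.6 (counting interval 9.30 to 33.3). Its paralog Lmx1b was nearly unread, with a mean of 0.171 in CTRL and 0.916 in D30.

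Of 14 tested LIM homeodomain factors and Lmx1a partners, limma called 1 higher and 1 lower in D30, and 6 had an unadjusted p under 0.05. Lhx6, a LIM homeodomain factor of interneurons, had 223, 354, 268, 141 and 253 in N1, N2, N4, N5 and N6 and 116, 61.9, 94.8, 69.8 and 65.0 in T1, T2, T4, T5 and T7. It fell in D30 with no overlap between groups (-1.57 ± 0.31, adjusted p = 0.0155, limma), a call lost without N2 or N6 (adjusted p up to 0.0644). En1, a homeodomain factor of the midbrain, had 206 to 787 in CTRL and 2439, 2911, 554, 975.3 and 1927 in T1, T2, T4, T5 and T7. It rose in D30 (2.05 ± 0.47, adjusted p = 0.0354, limma), with T4 inside the CTRL range, and the call was lost in 8 of 18 alternatives (adjusted p up to 0.113), among them library-size scaling and the fits without N1, N2, N5, N6, T1, T2 or T7. The list's median log2 difference was -0.76 (-1.01 to -0.48 over the alternatives).

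H2-M10.6, a nonclassical class I gene of the M region on chromosome 17 (36812171 to 36815564, plus strand), had 47.3 in N1, 51.3 in N2, 10.96 in N4, 46.9 in N5 and 36.8 in N6. N4 stood below the other CTRL tumors, with 12 reads. In D30 tumors 2 reads in T7 (2.13) were found and T1, T2, T4 and T5 were at 0, a ratio of 90.8 with a counting interval of 25.1 to 749. The copies closest to it were nearly unread: H2-M10.4, 88.5% identical over 99.9% of the transcript, had a mean of 1.45 in CTRL and 0.900 in D30. Of 8 tested genes of the M region list, limma called 0, 1 had an unadjusted p under 0.05 and the median log2 difference was -0.19. That median changed sign with DESeq2 (0.35) and without a filter (0.06). H2-M10.2 had 3.16 to 15.9 in CTRL and 0 to 9.25 in D30 (adjusted p = 0.217, limma), and B2m, the light chain of class I molecules, had a log2 difference of -0.20 ± 0.20 (adjusted p = 0.657, limma).

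H2al2a, a short histone variant that packages DNA in maturing sperm, lies on chromosome 2 (17996417 to 17996958, minus strand). It had 45.2 in N1, 53.5 in N2, 50.3 in N4, 41.6 in N5 and 65.0 in N6, which rested on 43 to 76 reads per tumor. It had no read in any D30 tumor, so its D30 level was at least 15.4-fold lower when each D30 library is set to the floor of 3 reads. That bound is more cautious than the counting intervals of genes with D30 reads and cannot be ranked against them. Per length H2al2a was the second highest of the 10 genes, at 3.03 reads per kb per 1000000 reads in CTRL after Rcan2 at 4.13. The rest of the testis histone and sperm chromatin list was close to silent in both groups. Of its 28 genes, 22 had no read in any tumor, 4 were tested and limma called 0, with 1 at an unadjusted p under 0.05 (Tnp2, a transition protein, 1.05 to 3.61 in CTRL and 1.03, 0, 0, 0 and 0 in T1, T2, T4, T5 and T7, adjusted p = 0.107). The median log2 difference of those 4 was -0.60 (-0.93 to -0.16 over the alternatives). The copy nearest to it in sequence, H2al1n, 86.6% identical over 95.8% of the transcript, was at 0 in every tumor, and H2al1m had a mean of 3.14 in CTRL and 1.61 in D30.

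Gm11217, on chromosome 4 (64254053 to 64276603, minus strand), had 16.8 in N1, 25.3 in N2, 13.7 in N4, 37.2 in N5 and 15.4 in N6, and Gm7437, on the X chromosome (30373539 to 30422500, plus strand), had 17.9, 10.8, 17.4, 11.5 and 10.27 in the same order. Neither had a read in a D30 tumor, and against the floor of 3 reads per library they were at least 6.52-fold and 4.08-fold lower. The reads of Gm7437 cannot be told apart with certainty from those of its copies. E330016L19Rik and Gm2309 matched it at 98.6% identity over 63.2% of the transcript, and both were low in CTRL (means 6.80 and 3.18) and had no read in D30. No other transcript matched Gm11217 or Alb.

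Identifiers were matched to GENCODE M21, whose positions on GRCm38 are given above, while the submitters' notes name GRCm39 and the methods name hg38. The 10 genes lie on 7 chromosomes. Promoter sequences, from 250 bases before to 50 bases after the annotated start, were available from RefSeq (GRCm38.p6) for 9 of the 10 genes, in 12 entries since Rcan2 has 3 starts and Gm7437 has 2. Cntnap4 has no entry. The promoters of 7 genes are printed, so that the starts of the protein-coding genes can be compared. They are the second start of Rcan2 (chr17:43801601-43801900, plus strand), Il2ra (chr2:11642542-11642841, plus strand), Alb (chr5:90460620-90460919, plus strand), Cyp2j5 (chr4:96664070-96664369, minus strand), Lmx1a (chr1:167689308-167689607, plus strand), H2-M10.6 (chr17:36811925-36812224, plus strand) and H2al2a (chr2:17996909-17997208, minus strand). Each runs 5′ to 3′ along the gene's strand, and capitals mark matches on either strand to the TATA box, the CCAAT box, the E-box, the GC box, the AP-1 and STAT sites or the NFAT core, whose letters stand with their counts after the sequences. No match overlapped another.
Rcan2: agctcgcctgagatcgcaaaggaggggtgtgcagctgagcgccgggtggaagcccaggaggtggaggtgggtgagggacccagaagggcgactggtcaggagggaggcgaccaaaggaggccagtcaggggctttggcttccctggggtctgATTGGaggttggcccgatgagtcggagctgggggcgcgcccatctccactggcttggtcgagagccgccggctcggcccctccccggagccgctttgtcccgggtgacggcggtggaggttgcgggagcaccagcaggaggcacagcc
Il2ra: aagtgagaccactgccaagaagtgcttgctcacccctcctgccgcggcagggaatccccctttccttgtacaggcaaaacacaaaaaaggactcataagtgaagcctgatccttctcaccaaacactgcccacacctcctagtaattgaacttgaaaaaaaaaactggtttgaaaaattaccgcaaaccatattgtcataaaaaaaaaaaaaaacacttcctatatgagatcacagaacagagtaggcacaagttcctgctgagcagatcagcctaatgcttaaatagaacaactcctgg
Alb: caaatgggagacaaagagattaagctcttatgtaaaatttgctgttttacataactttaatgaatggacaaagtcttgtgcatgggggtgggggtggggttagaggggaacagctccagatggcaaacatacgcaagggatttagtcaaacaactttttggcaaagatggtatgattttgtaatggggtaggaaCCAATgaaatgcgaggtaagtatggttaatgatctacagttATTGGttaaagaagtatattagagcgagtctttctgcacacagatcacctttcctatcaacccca
Cyp2j5: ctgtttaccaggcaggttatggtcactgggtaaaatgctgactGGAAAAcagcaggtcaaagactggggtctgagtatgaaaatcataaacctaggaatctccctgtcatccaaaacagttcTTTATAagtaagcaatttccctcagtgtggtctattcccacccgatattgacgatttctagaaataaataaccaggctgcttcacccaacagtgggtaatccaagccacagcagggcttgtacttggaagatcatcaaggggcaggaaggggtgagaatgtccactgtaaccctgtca
Lmx1a: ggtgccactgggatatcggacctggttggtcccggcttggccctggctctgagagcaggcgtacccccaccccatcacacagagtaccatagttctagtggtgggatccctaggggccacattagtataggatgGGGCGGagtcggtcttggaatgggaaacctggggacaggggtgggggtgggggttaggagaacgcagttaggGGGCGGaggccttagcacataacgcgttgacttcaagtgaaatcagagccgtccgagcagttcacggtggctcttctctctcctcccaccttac
H2-M10.6: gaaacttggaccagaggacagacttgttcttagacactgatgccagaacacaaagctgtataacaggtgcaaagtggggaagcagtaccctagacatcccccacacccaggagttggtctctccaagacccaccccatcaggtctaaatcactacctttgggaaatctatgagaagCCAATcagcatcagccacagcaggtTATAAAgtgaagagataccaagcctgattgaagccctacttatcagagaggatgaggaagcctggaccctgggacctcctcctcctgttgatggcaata
H2al2a: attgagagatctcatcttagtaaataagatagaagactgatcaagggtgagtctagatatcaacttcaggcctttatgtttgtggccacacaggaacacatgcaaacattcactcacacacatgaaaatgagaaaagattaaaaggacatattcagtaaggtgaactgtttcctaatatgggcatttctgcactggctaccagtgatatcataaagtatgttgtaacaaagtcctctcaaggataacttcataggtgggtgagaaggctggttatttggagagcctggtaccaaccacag

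None of the 7 motifs was found in all 9 genes. CCAAT was in a promoter of 5 genes (Rcan2, Alb, H2-M10.6, Gm11217 and Gm7437), and 37.4% of all 32851 RefSeq promoters of this length hold it. TATAAA was in 3 (Cyp2j5, H2-M10.6 and Gm7437), against 13.6% of all promoters. The remaining motifs were rarer among the 10 genes: the NFAT core GGAAAA was found in 2 genes (23.4% of all promoters), the AP-1 site TGANTCA in 2 (7.81%), the GC box GGGCGG in 1 (35.7%), the E-box CACGTG in 1 (7.15%) and the STAT site TTCNNNGAA in 0 (8.30%). These counts take a gene at any of its listed starts, whereas the shares are per promoter. Counted by entry, CCAAT was in 5 of 12, TATAAA in 3, the AP-1 site in 3 and the NFAT core in 2. A match is only a run of letters and names no bound factor. CG pairs, which are dense in the promoters of widely expressed genes, numbered 0 to 20 per promoter, and 9 of the 12 entries had fewer than the median of 7 over all promoters. H2-M10.6, H2al2a and the second start of Gm7437 had none, while the second start of Rcan2 had 20 and Lmx1a had 12.

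Among CTRL tumors the 10 genes did not rise and fall together. Rcan2 and Lmx1a were both highest in N1 and N2 and lowest in N5 and then N6. Cyp2j5, Cntnap4, Gm11217 and Il2ra instead had their highest value in N5. Alb and H2-M10.6 were highest in N2, H2al2a in N6 and Gm7437 in N1. The highest CTRL value was 1.34 times the lowest for Il2ra, 1.56 times for H2al2a and 1.74 times for Gm7437, and 2.71 to 5.67 times for the other genes, with Lmx1a the most uneven. Markers of adjacent pancreas also varied among CTRL tumors. The summed level of 12 acinar markers was 302 in N1, 32046 in N2, 3530.3 in N4, 341 in N5 and 70052 in N6, and 173 to 6949 in D30. None of those 12 was called by limma, and 5 had an unadjusted p under 0.05, with a median log2 difference of -4.48 (-2.55 with edgeR). The 8 endocrine markers summed to 17.7 in N5 and up to 1510.2 in N6, against 0 to 83.6 in D30, and limma called 4 lower (Ppy, Gcg, Iapp and Ins1, adjusted p = 0.0107 to 0.0355) and 0 higher, with a median of -3.61 (-0.80 with edgeR, -1.91 with a pseudocount of 5 and -5.79 with DESeq2). Of these calls that of Ppy held in all 16 alternatives that gave a value. Those of Gcg (without N2), Iapp (4 of 17) and Ins1 (9 of 17) were lost in some, with adjusted p values of up to 0.0623, 0.0730 and 0.107. The part of adjacent pancreas in the level of the 10 genes was not tested.

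**Figure D2:**
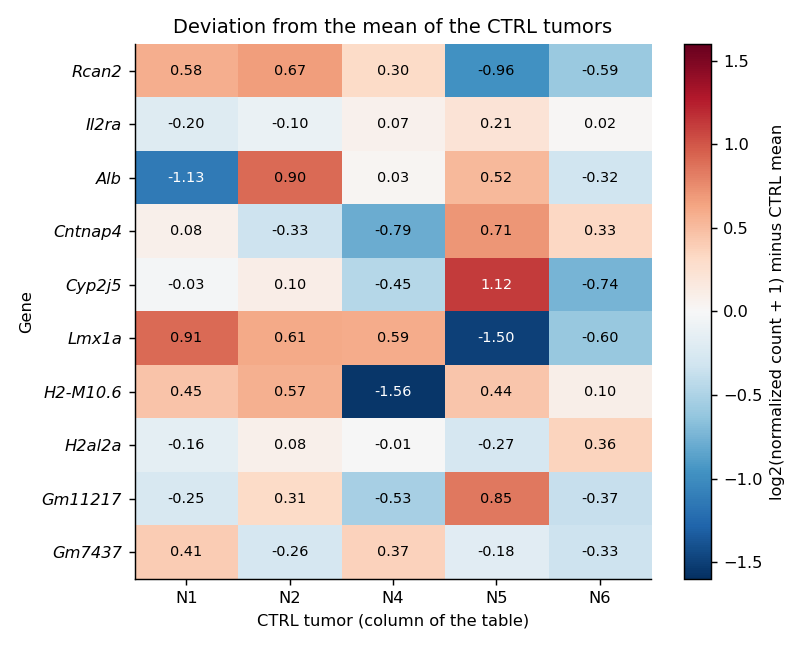
Deviation of each of the 10 genes (rows) in each CTRL tumor (columns) from its CTRL mean, as log2(normalized count + 1), with the value in each cell. Rcan2 and Lmx1a fall furthest in N5 (-0.96 and -1.50), where Cyp2j5 (1.12) and Gm11217 (0.85) are highest.

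The same pattern was counted over the whole table. Genes with a read in every CTRL tumor, a CTRL mean of at least 10 normalized counts and a D30 mean of at most 10% of it numbered 95 of 17078 (0.556%), and all 10 genes were among them. With the groups exchanged, 73 of 16506 genes (0.442%) were read in every D30 tumor and near silent in CTRL. The 10 genes thus sat inside a larger set, and a set of comparable size ran the other way. At a limit of 5% the counts were 47 and 19, and at 20% they were 224 and 262. The highest share among the 10 genes was that of Lmx1a at 6.01%. The genes just inside the limit of 10% were Pde6c (9.71%) and Crabp1 (9.76%), and those just outside were 2210010C04Rik (10.01%) and Ssu2 (10.15%). Of the 85 other genes, 53 did not overlap between the groups and 8 had no read in any D30 tumor. Over all genes tested, 815 of 24560 (3.32%) were lower in D30 with no overlap, and the limit on the D30 mean favours this. Immunoglobulin genes made up 19 of the 95. The median ratio of highest to lowest CTRL value was 3.05 for the 10 genes and 6.17 for the other 85. The latter include the immunoglobulin genes and very uneven acinar and endocrine genes such as Pnlip (4530) and Ins1 (612). Of the 95 genes, 52 had a ratio under 6, so an even CTRL level is not particular to the 10.

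**Figure D3:**
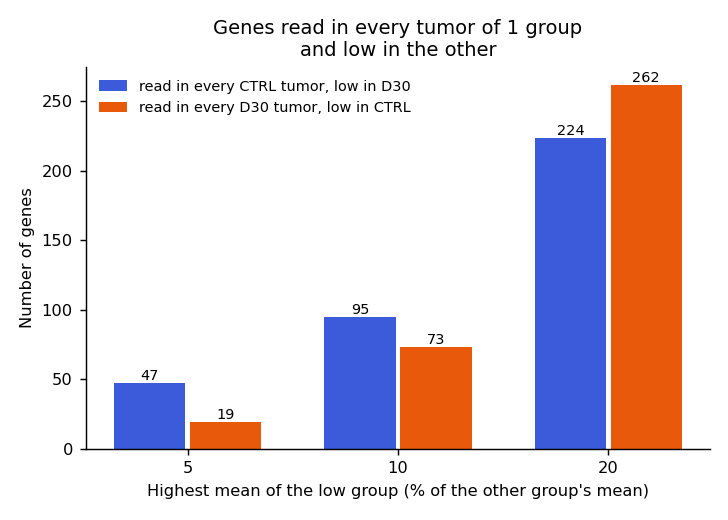
Number of genes (vertical axis) read in every tumor of 1 group, with a mean of at least 10 there, whose mean in the other group is at most 5, 10 or 20% of it (horizontal axis). Blue bars are genes low in D30 and orange bars genes low in CTRL. At 10% they number 95 and 73, and at 20% the order of the bars is exchanged (224 and 262).

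The genes whose profile over the 10 tumors was most like that of each of the 10 were found by the root-mean-square difference of log2(normalized count + 1), each centred on its own mean, over the 17352 genes with a mean of at least 10 outside the 10 genes themselves. For H2al2a the nearest of those genes was Gm13329 at 0.19, a processed pseudogene, and the next of them, Keg1, was at 0.95. For Cyp2j5 and Rcan2 it was Plekhd1 (0.60 and 0.75), for Lmx1a Crabp1 (0.66), a retinoic acid binding protein, for Gm7437 Gm17019 (0.68), for Cntnap4 Catsperg2 (0.77) and for Il2ra Gm15398 (0.999). For Alb, Gm11217 and H2-M10.6 it was again Gm13329 (0.67, 0.67 and 0.75), and the second for Alb was Cyp2c67 (0.77), a liver cytochrome. Within the 10 genes the closest pair was Alb and Gm11217 (0.54), Gm11217 was at 0.57 from Cntnap4 and at 0.59 from Gm7437, and both Rcan2 with Lmx1a and H2-M10.6 with Gm11217 were at 0.68. In these pairs the partner within the 10 genes was nearer to Alb, Cntnap4, Gm11217, Gm7437, Rcan2 and H2-M10.6 than any gene outside that was compared. Since the 10 genes share the difference between groups, these distances are a description only.

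Genes beside the 10 were looked at within 500 kb of each. Of 197 annotated neighbours 99 were tested, and limma called 2 higher and 5 lower in D30 (7.07%, against 2.76% of all genes), with a median log2 difference of -0.16. Among those lower, Gm11216 is annotated inside 8030451A03Rik, so the calls are not all of separate loci. Gm13329, 1.28 kb upstream of H2al2a on the same strand, had the profile most like it. It had 36.8 in N1, 53.5 in N2, 32.9 in N4, 44.3 in N5 and 61.6 in N6 and no read in D30, at least 13.8-fold lower against the floor of 3 reads (adjusted p = 5.4e-05, limma). The reads of H2al2a and Gm13329 numbered 43 and 35 in N1, 74 and 74 in N2, 55 and 36 in N4, 47 and 50 in N5, and 76 and 72 in N6. The next tested gene on the other side, Nebl at 265 kb, differed little between the groups (52.9 ± 21.9 and 60.5 ± 21.7, adjusted p = 0.834, limma).

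Of 5 tested genes around Gm11217, 2 were called, both lower in D30 and both downstream on the opposite strand. The transcript 8030451A03Rik, at 104 kb, had 230.2 to 437 in CTRL and 21.98 to 101 in D30 (-2.38 ± 0.39, adjusted p = 0.00660, limma), and Gm11216, at 170.2 kb, had 137 to 194 and 9.25 to 75.1 (-2.32 ± 0.46, adjusted p = 0.0181, limma). The groups did not overlap for either gene. Gm11216 (64075533 to 64083814) is annotated inside 8030451A03Rik (63979854 to 64149924) on the same strand. The 2 calls therefore come from the same stretch of the chromosome and are not of separate loci. The call of Gm11216 was lost without N2, N5 or N6 (adjusted p up to 0.0644).

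Of 17 tested neighbours of Alb, limma called 1, Afm at 42.3 kb. Afm encodes afamin, an albumin family protein, and fell from 122 ± 33.6 to 33.2 ± 12.3 with no overlap (-1.86 ± 0.36, adjusted p = 0.0147, limma), a call lost without N2, N5 or N6 (adjusted p up to 0.0563). Afp, the alpha-fetoprotein gene of the same cluster that lies between them at 14.1 kb from Alb, had means of 2159 ± 573 and 2202 ± 1178 (adjusted p = 0.886, limma). Afp thus lay between 2 genes with lower D30 values and had like means in both groups. Around Rcan2, 12 of 14 tested neighbours had a negative log2 difference, with a median of -0.53 against -0.06 over all genes tested, and 5 did not overlap between the groups. Over all genes tested, 3.32% were lower in D30 with no overlap and 2.87% were higher with none. Of the 14, 2 were called, in opposite directions. Cyp39a1, an oxysterol hydroxylase 49.9 kb upstream, had 1105 ± 226 and 552 ± 100.4 (adjusted p = 0.0208, limma, lost without N1, N2, N5 or T2 with a p of up to 0.0647), and Clic5, a chloride channel family gene 149 kb downstream, had 20.4 ± 5.80 and 111 ± 49.0 (2.34 ± 0.37, adjusted p = 0.00585, limma). Enpp5, between Rcan2 and Clic5 at 39.3 kb, had 1670.3 ± 306 and 1674 ± 417 (adjusted p = 0.986, limma).

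Around H2-M10.6, 1 of 24 was called. Trim31, a ubiquitin ligase 82.6 kb downstream, had 0 to 4.28 in CTRL and 9.25 to 183 in D30 and rose with no overlap (4.25 ± 0.79, adjusted p = 0.0127, limma). Trim26, closer at 21.6 kb, had a log2 difference of -0.08 ± 0.18 (adjusted p = 0.866, limma). Around Il2ra, 0 of 16 were called. Il15ra, which lies 12.1 kb away and codes for the related alpha chain of the interleukin-15 receptor, had 42.9 to 84.2 in CTRL and 19.5 to 98.3 in D30 (adjusted p = 0.984, limma), and Rbm17 on the other side at 38.7 kb had a log2 difference of 0.07 ± 0.19 (adjusted p = 0.885, limma). Around Lmx1a, 0 of 8 were called. The 2 tested neighbours of Cyp2j5 and the 2 of Gm7437 were not called, and none of the 4 neighbours of Cntnap4 was tested.

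**Figure D4:**
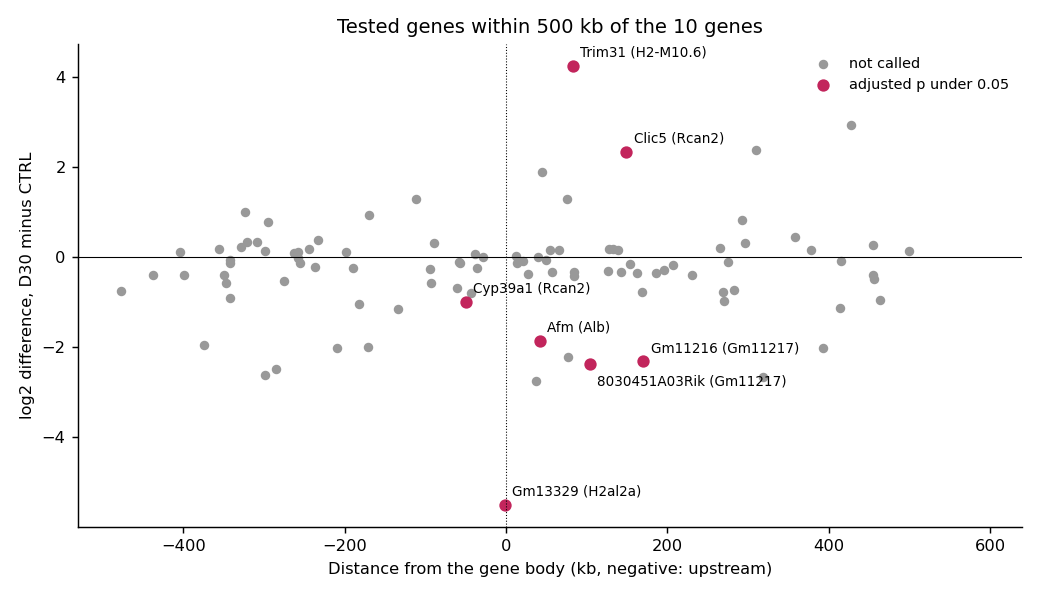
Log2 difference, D30 minus CTRL, of the 99 tested genes within 500 kb of the 10 genes (vertical axis) against their distance from the gene body in kb (horizontal axis, negative upstream). Red points are the 7 genes called by limma at an adjusted p under 0.05, each with the gene it neighbours in brackets. Gm13329 lies beside H2al2a at the bottom (1.28 kb), and 37 of the 99 points lie above 0.

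Over the 11 lists together, 141 of 198 genes were tested and limma called 2 higher and 6 lower, 5.67% of those tested against 2.76% of all genes. Of those lower, 4 were among the 8 endocrine markers, which stand for adjacent pancreas. The remaining calls were those of Il7r, Ttr, Lhx6 and En1. The share called without the endocrine list was not computed, so the 5.67% does not show an excess in the remaining lists. With 1 tumor left out the calls over all lists numbered 1 (without N2) to 18 (without T4). The lists of T cell markers, calcineurin and NFAT, epoxygenases, contactins and neurexins, and M region class I genes had 0 calls, as had the testis histones and the acinar markers.

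**Figure D5:**
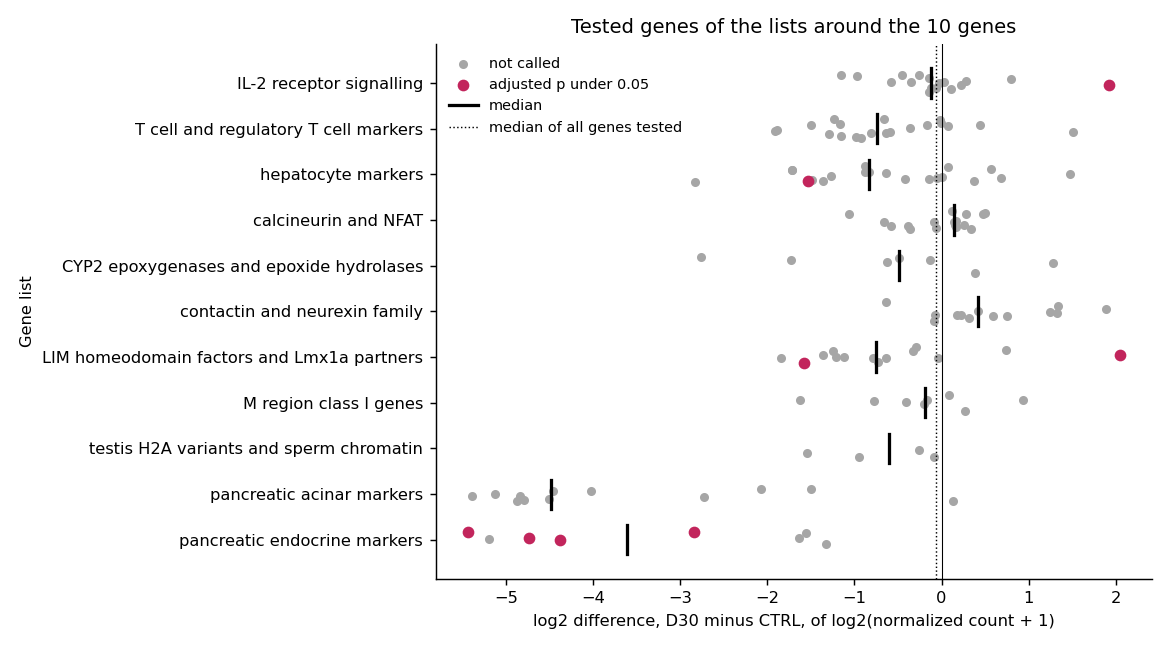
Log2 difference, D30 minus CTRL, of each tested gene (points) of the 11 lists around the 10 genes (rows). Red points are called by limma at an adjusted p under 0.05, short vertical bars are list medians and the dotted line is the median of all genes tested (-0.06). Medians lie between -0.84 and 0.42 except for acinar (-4.48) and endocrine (-3.61) markers, and those of IL-2 receptor signalling, calcineurin and NFAT, and M region genes change sign under 1 or 2 of the alternatives.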

How the data were processed

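Total RNA of 10 KPC orthotopic tumors was sequenced from strand-specific libraries. Per the labels and methods, the submitters trimmed reads with Trim Galore, aligned them with STAR (2.7.0e) and used DESeq2, and RSEM is among the software named. The methods name hg38, the processing notes GRCm39, and counting settings are not given in the sources used here. The authors deposited 1 table of normalized counts, a signal per gene and tumor already divided by a size factor. N columns were assigned to CTRL by letter and T columns to D30 as the only other group. All values (100%) were whole reads within 0.01 reads once the factor was undone.

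The 10 genes were those named for their silence in D30, and they and the gene lists were chosen with earlier results of these data known. Identifiers were matched without version to GENCODE M21 (94.1% of 55359). limma (3.58.1, R 4.3.3), with a mean-variance trend, tested log2(normalized count + 1) for the 24560 genes with a mean of at least 1. Adjustment was by Benjamini-Hochberg, with a call at 0.05, and folds on this scale understate the change of low genes. edgeR (4.0.16) and DESeq2 (1.42.0) on recovered reads were alternatives, and the scripts were tested on simulated data. The samples are independent tumors per the series text.

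Named genes were the 10 genes, the called genes of each list (at most 5) and the 2 with the smallest p, the 3 closest profiles per gene, and the called and nearest tested neighbours. One gene that meets this rule is not reported here. Il2rb, Il2rg, Il2, Rcan1, Rcan3, Cd3e, Foxp3, Tnfrsf9, Cyp2e1, B2m, Krt19, Epcam and genes named as relatives by sequence were added after their values were seen. Serpina1a, Serpina1b, F2, Cd3g, Cd8b1, Gzmb and Ccr8 were added likewise. Ratio intervals come from the exact 95% Poisson interval of the summed D30 reads and cover counting error only. The floor was 3 reads per library and was used for genes with no D30 read. It allows more reads than a Poisson interval would, so fold bounds from the floor and from the intervals are not comparable between genes.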

Additional observations from a re-analysis of the deposited data

Results flagged for a closer look

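Of 104 groups of 5 tumors checked for a single tumor far from the other 4, 17 had one, of which 16 are given. Chance alone flags about 1 in 20 only where values are continuous and normally distributed. A group with 4 tumors at 0 and a read in the other is always flagged. Among the 10 genes all 4 cases were in D30. Il2ra was at 27.5 in T2 (24 reads) against 0 to 6.17 in the others, and 1 or 2 reads set apart Alb in T2 (1.15), Cntnap4 in T1 (2.06) and H2-M10.6 in T7 (2.13), where the other 4 tumors were at 0. Of the genes around them, T4 stood apart in D30 for Cpa1 (359), Gcg (2.31), Ins1 (1.16) and Mgst3 (30673). T5 stood apart for Cntn2 (25.2), and T1 for Ppy (2.06) and Tnp2 (1.03). In CTRL, N4 was below the others for Afm (64.9) and H2-M5 (46.6), N1 above for Cyp2j6 (126) and Il15ra (84.2), and N5 above for H2al1m (7.97).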

How the results depend on the processing

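The 10 genes kept their direction and did not overlap between groups under every scaling, pseudocount and left-out tumor tried. Leaving out a tumor or changing the pseudocount cannot create an overlap. Apart from the scalings, this outcome was therefore fixed by the choice of the genes. The log2 differences of the 10 genes moved only with the pseudocount. Over all genes, limma called 678, and leaving out 1 tumor gave 279 (without N2) to 1573 (without T4) calls, 150 to 812 higher and 129 to 761 lower. Called list genes then numbered 1 (N2) to 18 (T4) instead of 8 and called neighbours 4 (N2, N5) to 16 (T4) instead of 7. DESeq2 on recovered reads called 1858 genes (1098 higher, 760 lower), 20 list genes and 17 neighbours, and edgeR called 707 (457 higher, 250 lower) with 5 list genes. Library-size scaling gave 240 higher and 624 lower calls and 13 neighbours, against 344 and 334 with the deposited scaling. Genes with the silent pattern numbered 47 at a limit of 5% and 224 at 20%, and those with the reverse pattern 19 and 262. With 1 tumor left out they numbered 88 to 118 and 63 to 99. The causes were not tested. No paired analysis was possible by replicate number, because the table and the labels number the tumors differently. No pairs are described either. The tumors are independent per the series text, and the methods state that mice with tumors were randomized to the conditions. The replicate numbers that both groups share in the labels are therefore not known to be pairs. A D30 value of 0 allows up to 3 reads, on average 3.32 normalized counts, so a lower level was not detectable at this depth.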
